A study of Homo sapiens with 4 samples.

Results

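At 2931 places in the genome of NB4 cells a PPARα peak overlapped 1 PML/RARA peak while the summits of the 2 peaks, the single bases of highest signal, lay more than 200 bases apart. They were taken from 9573 PPARα peaks on chromosomes 1 to 22. Of these, 7675 overlapped exactly 1 PML/RARA peak by at least 1 base, and 2931 of those 7675 (38.2%) had summits apart. The members were chosen by the summit positions of both lists. The comparison set is the other 4744 single-overlap pairs, whose summits lay within 200 bases. A further 944 PPARα peaks overlapped 2 or more PML/RARA peaks and 954 overlapped none. The 2 lists together hold 55850 peaks.

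NB4 cells come from a human acute promyelocytic leukemia and express the PML/RARA fusion protein. The series holds 4 libraries of NB4 cells made by CUT&Tag, a method in which antibody-tethered transposase cuts and tags the DNA around a bound protein: 1 with an antibody against PPARα, 1 with an antibody against PML/RARA, and 1 IgG library named for each. The labels mark the antibody libraries as treatment and the IgG libraries as control and name no drug. Each antibody gave 1 peak list with no replicate, the IgG libraries were not used here, and the read depth behind the lists is unknown. All values are therefore descriptions of these 2 lists with no test. The sources used here do not say which stretch of the fusion the PML/RARA antibody sees, so wild-type RARA or PML cannot be told apart from the fusion.

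PPARα is a nuclear receptor activated by fatty acids, and it binds DNA as a partner of RXR at repeats of the half-site AGGTCA. PML/RARA keeps the DNA-binding domain of the retinoic acid receptor RARA, which also pairs with RXR on repeats of that half-site. In a gene promoter, the nucleosome-poor stretch just upstream of the transcription start site is where most general and sequence-specific factors are found, and nucleosomes flank it on both sides.

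The 6 promoters that follow are examples, taken from named members whose window held a summit. Each run is the RefSeq window (GRCh38.p14, the assembly of hg38) from 250 bases before to 50 bases after a start site, 5′ to 3′ on the strand of the gene, and capitals mark the 11 bases centred on a summit. The first 2, at PPP2R1A (chr19:52189802-52190101, plus strand) and LSS (chr21:46228725-46229024, minus strand), hold both summits, the first run of capitals being the PML/RARA summit and the second the PPARα summit. The other 4 hold the PML/RARA summit alone. At UCP2 (chr11:73983153-73983452, minus strand) and MMAB (chr12:109573455-109573754, minus strand) the PPARα summit lay downstream of the window. At CHD1 (chr5:98928958-98929257, minus strand) and G3BP1 (chr5:151771704-151772003, plus strand) it lay upstream of the window.
PPP2R1A: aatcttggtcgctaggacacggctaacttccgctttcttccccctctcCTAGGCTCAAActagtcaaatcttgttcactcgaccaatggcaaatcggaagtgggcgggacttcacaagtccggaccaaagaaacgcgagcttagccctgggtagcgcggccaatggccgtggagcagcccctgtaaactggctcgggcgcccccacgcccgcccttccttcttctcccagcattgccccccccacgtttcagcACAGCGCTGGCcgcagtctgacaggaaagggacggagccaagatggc
LSS: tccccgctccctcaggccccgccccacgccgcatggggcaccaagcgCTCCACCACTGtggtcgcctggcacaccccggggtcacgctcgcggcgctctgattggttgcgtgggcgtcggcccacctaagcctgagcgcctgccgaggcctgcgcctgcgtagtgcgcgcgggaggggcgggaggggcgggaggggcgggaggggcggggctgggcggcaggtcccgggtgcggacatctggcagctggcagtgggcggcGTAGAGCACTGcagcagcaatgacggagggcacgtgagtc
UCP2: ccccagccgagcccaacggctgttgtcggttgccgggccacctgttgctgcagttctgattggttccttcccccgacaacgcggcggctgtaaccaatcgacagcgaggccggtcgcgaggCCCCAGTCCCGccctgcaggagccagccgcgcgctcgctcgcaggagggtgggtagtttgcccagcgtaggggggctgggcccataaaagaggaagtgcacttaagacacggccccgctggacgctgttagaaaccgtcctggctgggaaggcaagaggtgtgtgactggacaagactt
MMAB: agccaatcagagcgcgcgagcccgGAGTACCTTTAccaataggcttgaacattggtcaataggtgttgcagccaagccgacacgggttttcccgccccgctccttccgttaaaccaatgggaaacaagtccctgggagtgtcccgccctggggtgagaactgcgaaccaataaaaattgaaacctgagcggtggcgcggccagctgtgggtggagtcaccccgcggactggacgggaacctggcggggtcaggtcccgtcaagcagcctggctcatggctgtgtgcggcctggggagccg
CHD1: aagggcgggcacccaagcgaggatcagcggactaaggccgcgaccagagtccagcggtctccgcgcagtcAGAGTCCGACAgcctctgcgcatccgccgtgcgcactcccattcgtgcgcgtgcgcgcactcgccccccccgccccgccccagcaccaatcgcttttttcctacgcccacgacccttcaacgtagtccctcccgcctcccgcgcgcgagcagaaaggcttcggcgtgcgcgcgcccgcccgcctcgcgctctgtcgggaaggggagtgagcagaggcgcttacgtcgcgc
G3BP1: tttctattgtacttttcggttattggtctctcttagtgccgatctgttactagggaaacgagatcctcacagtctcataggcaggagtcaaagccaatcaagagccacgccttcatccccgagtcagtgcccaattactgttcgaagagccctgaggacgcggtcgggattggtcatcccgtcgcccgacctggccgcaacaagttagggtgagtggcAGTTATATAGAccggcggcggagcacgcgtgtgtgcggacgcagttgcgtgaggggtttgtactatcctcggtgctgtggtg

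At PPP2R1A, which encodes a scaffold subunit of protein phosphatase 2A, the PML/RARA summit lay 197 bases upstream of the start site and the PPARα summit 8 bases downstream. At LSS, the lanosterol synthase gene, they lay 198 bases upstream and 15 bases downstream. At UCP2, a mitochondrial carrier gene, they lay 124 bases upstream and 77 bases downstream, and at MMAB, a vitamin B12 metabolism gene that stands head to head with the mevalonate kinase gene MVK, 221 bases upstream and 121 bases downstream. At CHD1, a chromatin remodeller gene, both lay upstream, PML/RARA at 175 bases and PPARα at 389 bases. At G3BP1, a stress granule protein gene, both again lay upstream, at 27 and 251 bases. In 5 of these 6 promoters the PML/RARA summit was the one upstream and within 200 bases of the start site, MMAB being the exception. A promoter was printed only where its window held a summit, so this count does not describe the members.

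Distances between summits showed no gap at 200 bases. Among the 7675 pairs, 1165 had summits 0 to 49 bases apart, 1024 had 50 to 99, 1227 had 100 to 149, 1314 had 150 to 199, 1115 had 200 to 249, 790 had 250 to 299 and 430 had 300 to 349. The most filled of these classes, 150 to 199 bases, was the one just inside the limit. In classes of 25 bases a maximum also stood at 0 to 24 bases, with 674 pairs. It was followed by 491 at 25 to 49 bases and a broader maximum of 685 at 150 to 174. In the pairs with summits apart the median distance was 271 bases (quartiles 232 and 331, largest 1041), 1033 pairs exceeded 300 bases, and 150 exceeded 500. The summit of either list carries an uncertainty that the lists do not give.

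**Figure D1:**
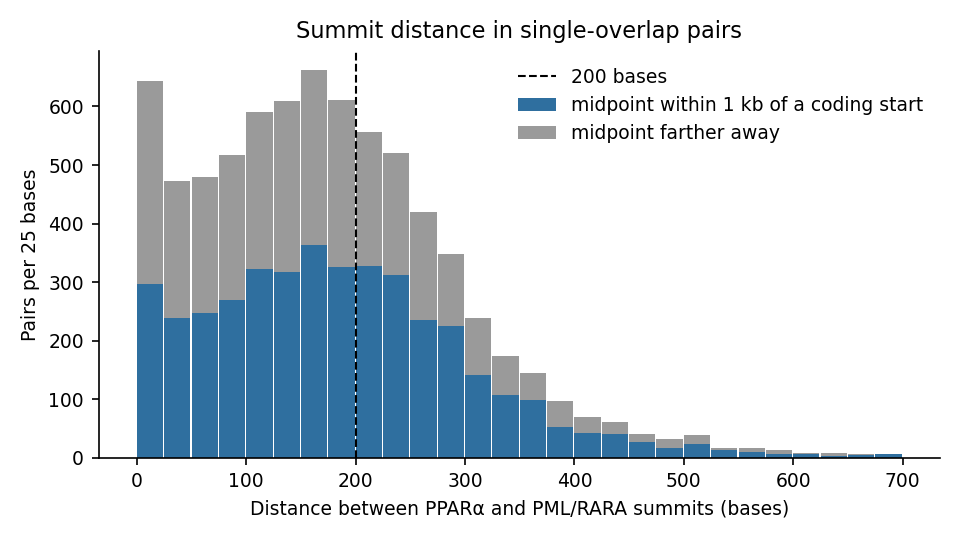
Number of single-overlap pairs (vertical axis, per 25 bases) by the distance between their PPARα and PML/RARA summits (horizontal axis, bases, shown up to 700), with pairs whose summit midpoint lies within 1 kb of a coding start site in blue and the others in grey, without chromosome 8. The dashed line marks 200 bases, which falls on the falling side of a broad rise rather than in a gap. Another maximum stands at 0 to 24 bases.

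The peaks of a pair still covered much of the same ground. The overlap was at least 50% of the shorter peak in 2441 of 2931 pairs (83.3%, 95% Clopper-Pearson interval 81.9 to 84.6, which here and below covers counting error over peaks only), against 94.0% of the pairs with close summits. The median overlap was 402 bases, and 398 bases in the pairs with close summits. The PPARα summit lay inside the PML/RARA peak in 67.2% of the pairs apart, the PML/RARA summit inside the PPARα peak in 59.5%, both in 43.3% (41.5 to 45.1), and neither in 16.5% (483 pairs). In the pairs with close summits both lay inside the other peak in 84.0%. The limit on distance itself lowers these shares, so they describe the members and nothing more. The 2931 members held 2927 distinct PML/RARA peaks.

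Wide peaks had summits apart more often. The median PML/RARA width was 612 bases in the pairs apart and 539 in the pairs with close summits, and the median PPARα width was 529 and 506 bases. With the pairs cut into 5 equal groups (quintiles) by PML/RARA width, summits were apart in 33.8%, 32.4%, 32.6%, 39.0% and 53.2%. The share rose from the fourth quintile on, at widths of 624 bases and more. Short peaks leave less room for distant summits, and among the members the narrowest PPARα peak spanned 301 bases and the narrowest PML/RARA peak 104.

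Median folds were slightly lower where summits lay apart. Fold enrichment is the authors' linear ratio over background and is compared within each list only. The median PPARα fold was 6.38 (quartiles 5.08 and 8.27) in the pairs apart and 6.61 (5.26 and 8.63) in those with close summits. The median PML/RARA fold was 15.5 (11.2 and 20.01) and 16.2 (11.4 and 21.1). The quartile ranges overlapped almost wholly. The median −log10 q was 6.67 and 7.004 for PPARα, in the same order, and 55.9 and 55.5 for PML/RARA, in the opposite order. In the lowest and the highest quintile of PPARα fold the share apart was 42.9% and 33.8%, and for PML/RARA fold 39.7% and 33.2%. Within every quintile of PML/RARA width the medians of both folds were also lower in the pairs apart, for example 15.4 against 16.6 for PML/RARA and 7.64 against 8.44 for PPARα in the widest quintile.

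**Figure D2:**
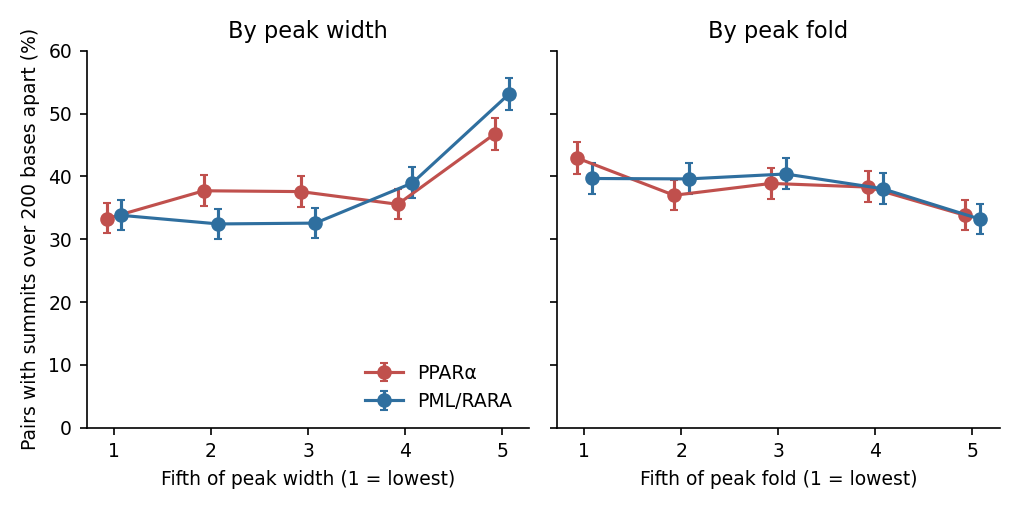
Share of single-overlap pairs with summits over 200 bases apart (vertical axis, percent) in each quintile of peak width (left) and of the authors' fold (right), for PPARα peaks in red and PML/RARA peaks in blue. Points are shares of 1535 pairs each and bars are 95% Clopper-Pearson intervals. The share reaches 53.2% in the widest quintile of PML/RARA peaks and falls to 33.2% in the quintile of highest PML/RARA fold.

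The members lay at gene ends somewhat more often than the pairs with close summits. The PPARα summit was within 1 kb of an annotated end of a protein-coding gene in 1809 of 2931 pairs (61.7%, 59.9 to 63.5), against 55.7% (54.2 to 57.1) of the pairs with close summits and 53.1% of all PPARα peaks on these chromosomes. A further 652 lay inside protein-coding genes, 174 inside other annotated genes and 296 between genes (10.1%, against 14.2% of the pairs with close summits). Read the other way, summits were apart in 40.7% of the pairs at gene ends and in 30.5% (27.7 to 33.6) of those between genes. The peaks at gene ends were also the wider ones: members with a midpoint within 1 kb of a coding start site had median widths of 585.5 bases for PPARα and 659.5 bases for PML/RARA, and members farther away 463 and 509 bases. Pairs with close summits at start sites had 557 and 606 bases. The part of width in this difference of location was not tested. By chromosome the share apart ran from 33.8% on chromosome 12 to 45.3% on chromosome 18, where 86 pairs give an interval of 34.6 to 56.5.

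The 2 summits took different places around the start site. Start sites came from a RefSeq table with 15101 of the 19126 protein-coding genes of these chromosomes and none of chromosome 8. In 1706 of 2835 pairs (60.2%) the midpoint of the summits lay within 1 kb of such a site, against 52.1% of the pairs with close summits. The PML/RARA summit sat close upstream: its median position was 82 bases upstream, it lay within 250 bases of the start in 83.1% (81.2 to 84.8), and it lay 1 to 200 bases upstream in 1104 of 1706 pairs (64.7%, 62.4 to 67.0). The PPARα summit was found in that 200-base stretch in only 120 pairs (7.03%, 5.87 to 8.35). It lay instead 1 to 300 bases downstream of the start in 862 pairs (50.5%, 48.1 to 52.9) or 201 to 500 bases upstream in 423 (24.8%, 22.8 to 26.9). In the pairs with close summits the PPARα summit was in these 2 stretches in 42.4% and 24.6%, so the upstream share was much alike.

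Because the members were picked for distance, one summit must lie away from the start when the other lies at it, but the rule does not fix which. The shares given for the pairs with close summits are descriptions for the same reason. The PML/RARA summit was nearer to the start in 1237 of 1706 pairs (72.5%, 70.3 to 74.6). In the pairs with close summits it was nearer in 58.1%. With limits of 100 and 300 bases the share in the pairs apart was 67.3% and 77.4%. This share thus moved with the limit, and the part of the rule in its difference from the pairs with close summits was not tested. Against the nearest annotated end of any coding gene, chromosome 8 included, the PML/RARA summit was nearer in 70.1% (68.0 to 72.2) of 1837 pairs apart and in 57.9% of those with close summits. The median PML/RARA position was 82 bases upstream in the members and 76 bases upstream in the pairs with close summits. PML/RARA summits lay 1 to 200 bases upstream in 64.7% and 57.7% (55.7 to 59.7), 1 to 300 bases downstream in 15.1% and 21.9%, and 201 to 500 bases upstream in 9.38% and 14.0%. Within 250 bases of the start, PML/RARA summits lay in 83.1% and 83.3%. PPARα summits lay 1 to 200 bases upstream in 7.03% and 27.8%, and within 250 bases of the start in 53.9% and 79.1%. With PML/RARA in that 200-base stretch in 1104 members, a PPARα summit over 200 bases away could not be there too, so the rule itself lowers the PPARα share.

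**Figure D3:**
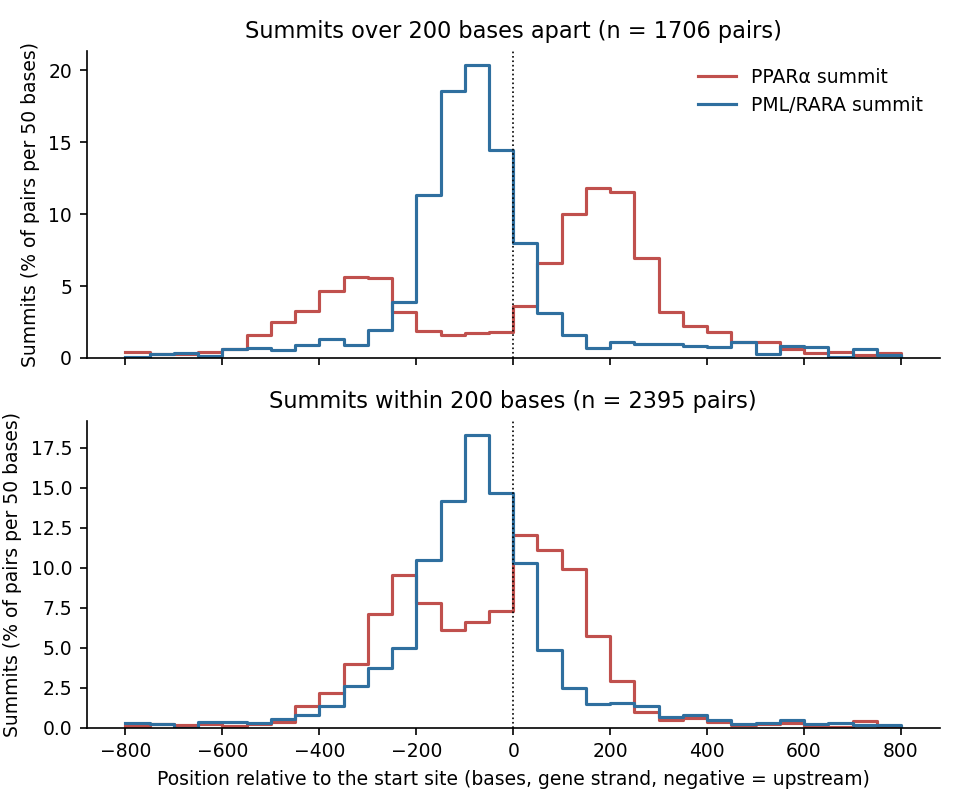
Positions of PPARα summits (red) and PML/RARA summits (blue) relative to the coding start site nearest to the midpoint of the pair (horizontal axis, bases on the strand of the gene, negative upstream; vertical axis, percent of pairs per 50 bases), for 1706 pairs with summits apart (top) and 2395 with close summits (bottom). In the top panel the PML/RARA summits form 1 peak just upstream of the start and the PPARα summits form 2, one on each side of it; in the bottom panel PPARα still has 2 maxima, closer in.

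The arrangement most often seen had the start site between the summits. In 840 of 1706 pairs (49.2%, 46.8 to 51.6) the PML/RARA summit lay upstream and the PPARα summit downstream of the start, and in 563 (23.5%) of the pairs with close summits. The reverse, with PPARα upstream and PML/RARA downstream, was seen in 150 members (8.79%) and in 96 (4.01%) of the pairs with close summits. A larger distance makes it more likely that a start lies between the summits, so the rule itself raises both shares. Both summits lay upstream with PPARα farther out in 384 pairs (22.5%), and the mirror arrangement with PML/RARA farther out in 92 (5.39%). When PPARα was the downstream one of the pair (1077 pairs), its median position was 184 bases downstream and that of PML/RARA 101 bases upstream. When PPARα was the upstream one (629 pairs), the medians were 315 bases upstream for PPARα and 41 bases upstream for PML/RARA. The folds of these subsets were much alike, with PPARα medians of 6.77 and 6.96 and PML/RARA medians of 17.1 and 16.3.

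Start sites with another start on the opposite strand nearby leaned further to this arrangement, in the members and in the pairs with close summits alike. In 236 of the 1706 pairs another coding gene in the table started within 1 kb on the opposite strand, and there the PML/RARA summit lay upstream and the PPARα summit downstream in 156 (66.1%). At the 1446 pairs with no other coding gene starting within 1 kb the figure was 669 (46.3%), and both summits upstream with PPARα farther out was 360 (24.9%) against 19 of 236. In the pairs with close summits, PML/RARA upstream with PPARα downstream was seen in 103 of 344 (29.9%) and 450 of 2025 (22.2%). Head-to-head starts were not separated from overlapping ones. Between head-to-head genes, bases far upstream of one start can lie inside the other gene and are then counted from its start. In 198 of the 1773 pairs with both summits within 1 kb of a gene end (11.2%), the 2 summits were nearest to the ends of different genes. The share was 4.64% in the pairs with close summits. A larger distance makes different nearest genes more likely, so the rule itself raises the share in the members.

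Ranked by −log10 q among the members near gene ends outside chromosome 8, the 8 leading PPARα peaks stood at MZF1, SDR42E2, NDUFA11, CHD1, G3BP1, RAVER1, CCDC9 and PPP2R1A. The highest, at the zinc finger gene MZF1 (chr19:58572837-58573660), had a fold of 16.6, and its summit lay 94 bases downstream of the start site with that of PML/RARA (fold 11.3) at 316 bases downstream, 222 bases away. Here PPARα was the summit nearer to the start, unlike the majority. At SDR42E2, a short-chain dehydrogenase family gene (PPARα fold 15.7, PML/RARA fold 15.5), the summits lay 497 bases apart. At NDUFA11, whose product belongs to respiratory complex I and which shares the peak with VMAC, the folds were 15.3 and 16.5 with 257 bases between. CHD1 had folds of 18.3 and 14.9, and G3BP1 16.3 and 17.9. At the splicing cofactor gene RAVER1 and its neighbour ICAM3 the folds were 9.95 and 14.3 and the peaks shared 1186 bases, yet the summits lay 277 bases apart.

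The 8 members of the same kind with the highest PML/RARA −log10 q included several with low PPARα folds, and their own PML/RARA folds ran from 11.5 to 27.3. At the gene of the estrogen-related receptor ESRRA and its neighbour CATSPERZ the PML/RARA peak (fold 18.2, −log10 q 814) spanned 1865 bases, and its summit lay 602 bases from that of PPARα (fold 8.50). The PML/RARA summit was 237 bases and the PPARα summit 839 bases upstream of the ESRRA start. At CASP9, the initiator caspase gene of the mitochondrial death pathway, the PPARα summit lay 64 bases upstream and the PML/RARA summit 375 bases downstream, with folds of 8.74 and 12.1. PCGF3, a Polycomb ring finger gene, had a PML/RARA fold of 27.2 and a PPARα fold of 4.61, and RAB3A, a vesicle transport GTPase gene, 27.3 and 4.72. At PCGF3 the summits lay 164 bases upstream for PML/RARA and 420 bases upstream for PPARα, and at RAB3A 111 bases upstream and 169 bases downstream. CLDND2 (19.5 and 5.01), TSEN34 with MBOAT7 (12.6 and 10.01), DBP with CA11 (11.5 and 7.14) and CCDC9 (16.2 and 13.4) completed the group, with summits 223 to 249 bases apart.

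**Figure D4:**
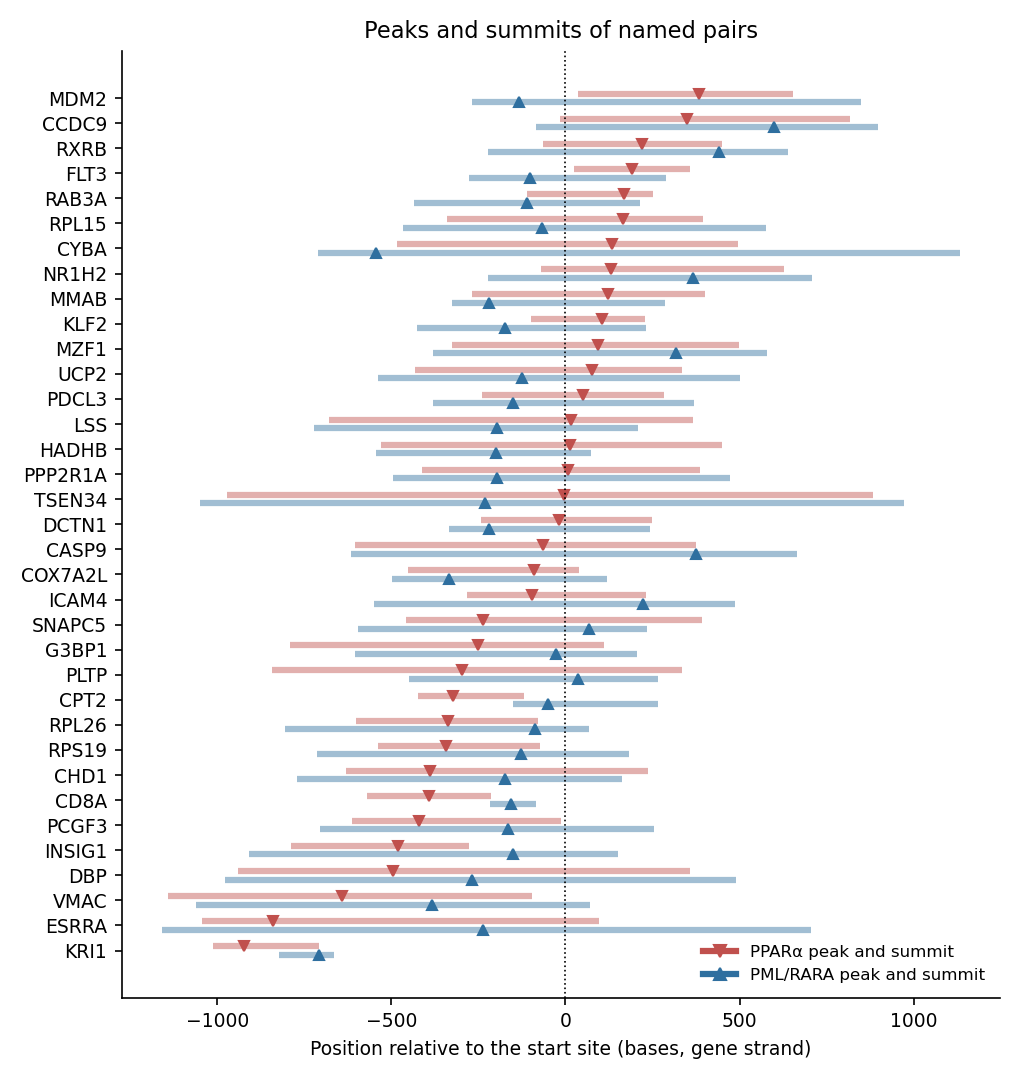
PPARα peaks (red bars, triangle at the summit) and PML/RARA peaks (blue bars, triangle at the summit) of named pairs with a start site in the table (those named by −log10 q, just over the limit or by gene list, 1 of these left out), 1 row for each start site, by position relative to the start (horizontal axis, bases on the strand of the gene), sorted by the PPARα summit. The peaks of most rows overlap broadly (CPT2, CD8A and KRI1 less so), while PML/RARA summits stay mostly just upstream of the start and PPARα summits in these rows spread from 923 bases upstream (KRI1) to 382 bases downstream (MDM2).

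Among the members near gene ends outside chromosome 8, the 5 with the widest separations had broad peaks or a bare touch. At TRAPPC5, a vesicle tethering gene, the summits were 975 bases apart, with PML/RARA (fold 11.9) 38 bases upstream and PPARα (6.91) 937 bases downstream of the start, inside a PML/RARA peak of 1569 bases. At HP1BP3, a heterochromatin protein gene, they were 912 bases apart and the peaks shared 9 bases. At PPP2CA, the catalytic subunit gene of protein phosphatase 2A, they were 902 bases apart (folds 23.9 for PML/RARA and 4.96 for PPARα). PFN1 with its neighbour ENO3 (839 bases) and HMGN4 (834 bases) followed, and at both the PPARα summit was the one nearer to the PFN1 or HMGN4 start.

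Of the many pairs next to the limit, those with the highest PPARα −log10 q serve as examples. The 3 just over it, at 201 bases, were UCP2 (PPARα fold 13.0, PML/RARA fold 17.5), PDCL3 (12.5 and 21.9) and the dynactin gene DCTN1 (11.4 and 13.0). The 3 just within it, at 200 bases, were SDR39U1 with KHNYN (14.0 and 26.7), ATL1 (10.6 and 18.1) and MMADHC (10.8 and 5.71). At SDR39U1 PML/RARA lay 31 bases upstream and PPARα 169 bases downstream, the arrangement seen at UCP2 and PDCL3.

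The gene lists below were drawn up with earlier results of these data known, and a gene was counted when the PPARα summit of a pair lay within 1 kb of either end. Over all 19126 protein-coding genes, 2202 (11.5%) had a member at an end and 3198 (16.7%) a pair with close summits. Of the 5331 genes with either kind, 41.3% had a member.

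Sterol and fatty acid synthesis was the list with the largest share of members. Of 22 genes 11 (50%) had a pair with summits apart, 3 had one with close summits, and of the 14 with either kind 78.6% had summits apart. Cholesterol synthesis enzymes made up most of them. MVK, mevalonate kinase, had a PPARα fold of 10.5 and a PML/RARA fold of 21.3 with summits 342 bases apart, and LSS had 7.86 and 26.4 (213 bases). IDI1, isopentenyl diphosphate isomerase, had 6.01 and 10.8 (209 bases), and FDPS, farnesyl diphosphate synthase, 5.51 and 26.4 (297 bases).

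The other members of this list were regulators and fatty acid enzymes. INSIG1 and INSIG2, which hold the sterol-sensing SREBP complex in the endoplasmic reticulum, had PPARα folds of 5.64 and 4.13 and PML/RARA folds of 16.4 and 14.0. The fatty acid enzymes SCD, stearoyl-CoA desaturase, and FASN, fatty acid synthase, had PPARα folds of 4.78 and 4.26 and PML/RARA folds of 18.4 and 9.55. One gene of the list with a member lies on chromosome 8 and is not named here. HMGCS1, MVD and SREBF2 were the 3 with close summits.

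Within this list the summits followed both arrangements that were most common among the members. Of the 7 pairs with a start site, 3 had PML/RARA upstream and PPARα downstream (MVK through the MMAB start, LSS and INSIG2) and 3 had both upstream with PPARα farther out. These 3 were INSIG1 (PML/RARA 151 and PPARα 480 bases upstream), FDPS (153 and 450) and SCD (212 and 417). At IDI1 both lay downstream, PML/RARA at 16 bases and PPARα at 225. The PPARα peaks were not strong ones: the median PPARα fold of the 10 pairs outside chromosome 8 was 5.57 (4.13 to 10.5), below the 6.38 of all members, and their median PML/RARA fold was 17.4 (9.55 to 26.4). At FASN no start site of the table lay within 1 kb.

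**Figure D5:**
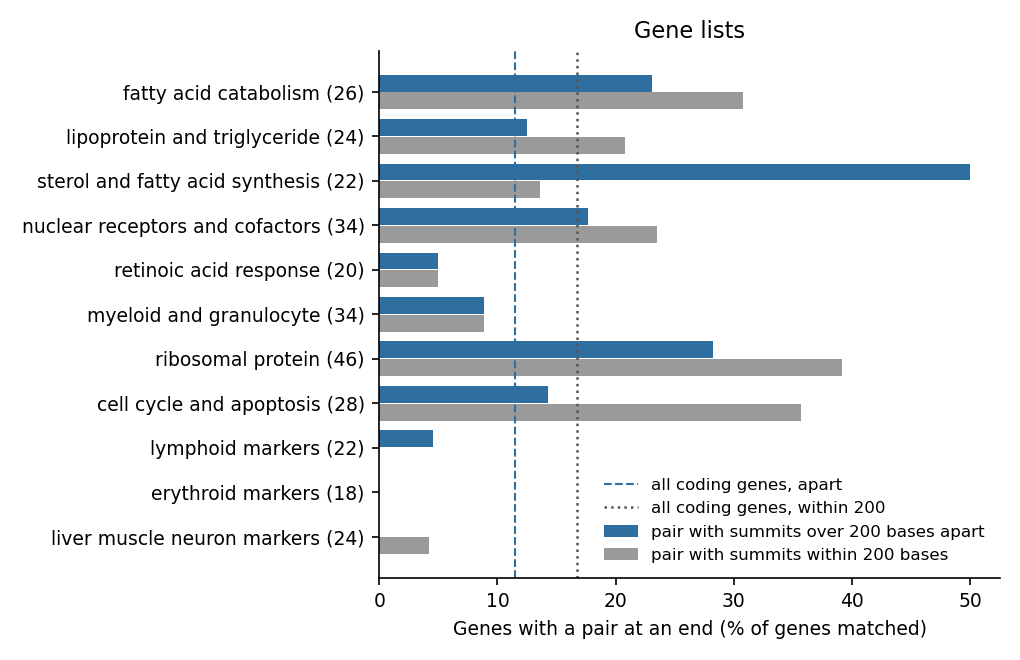
Share of the genes of each list (number of genes matched in parentheses) that have at an end a pair with summits over 200 bases apart (blue) or within 200 bases (grey), in percent on the horizontal axis, with dashed and dotted lines at the shares over all coding genes (11.5% and 16.7%). The sterol and fatty acid synthesis list has 50% and 13.6%, while fatty acid catabolism has 23.1% and 30.8% and ribosomal protein genes 28.3% and 39.1%.

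Fatty acid catabolism genes, which include textbook PPARα targets, had members at 6 of 26 (23.1%) and pairs with close summits at 8, a share apart of 46.2% among the 13 with either, near the 41.3% of all genes. UCP2 had the strongest PPARα peak (fold 13.0). HADHA and HADHB, head-to-head genes for the subunits of the trifunctional β-oxidation complex, had 5.69 and 23.3, with PML/RARA 200 bases upstream and PPARα 13 bases downstream of the HADHB start. At CPT2, the inner carnitine palmitoyltransferase, the peaks (4.82 and 20.9) shared only 33 bases, PML/RARA lying 49 and PPARα 324 bases upstream. HADH (4.56 and 14.99) had PML/RARA 100 bases upstream and PPARα 110 bases downstream.

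Genes of lipoproteins and triglycerides had members at 3 of 24 (12.5%, near the 11.5% of all coding genes) and pairs with close summits at 5. PLTP, the phospholipid transfer protein gene (PPARα fold 7.39, PML/RARA fold 19.6), had PPARα 296 bases upstream and PML/RARA 35 bases downstream. At SCARB1, the high-density lipoprotein receptor gene (4.73 and 15.4), the summits lay 297 bases apart. The third gene is on chromosome 8.

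Among nuclear receptors and their cofactors 6 of 34 (17.6%) had a member and 8 (23.5%) had a pair with close summits. Over all coding genes the shares were 11.5% and 16.7%. Of the 14 genes of the list with either kind 42.9% had a member, near the 41.3% of all genes. RXRB, one of the RXR partners of both receptors, had a PPARα fold of 12.6 and a PML/RARA fold of 12.5, with both summits downstream of the start, PPARα at 221 and PML/RARA at 442 bases. NR1H2, the liver X receptor beta gene (9.15 and 16.6), had the same order, at 130 and 365 bases. VDR, the vitamin D receptor gene (9.61 and 9.40), and NCOA6, a coactivator gene (5.14 and 12.3), had summits 212 and 310 bases apart. At NR2C2, an orphan receptor gene (7.57 and 15.3), both lay deeper in the gene, PPARα at 736 and PML/RARA at 532 bases downstream. The sixth was ESRRA, described above. None of the 4 receptor pairs with a start site had PML/RARA upstream and PPARα downstream.

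Ribosomal protein genes had members at 13 of 46 (28.3%) and pairs with close summits at 18, so that 41.9% of the 31 with either kind were apart, as in all genes. RPS19 had a PPARα fold of 13.2 and a PML/RARA fold of 15.4, with PML/RARA 127 and PPARα 343 bases upstream. RPL26 (11.7 and 14.8) had them 87 and 336 bases upstream, while RPL15 (9.30 and 18.5) had PML/RARA 68 bases upstream and PPARα 166 bases downstream. RPL4, whose peaks are placed by the start of its neighbour SNAPC5, had 9.74 and 21.7. Of the 10 pairs of the list with a start site outside chromosome 8, 4 had PML/RARA upstream with PPARα downstream and 4 had both upstream with PPARα farther out.

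Of 34 myeloid genes CYBA, FLT3 and KLF2 (8.82%, near the 11.5% of all coding genes) had a member and 3 had a pair with close summits. In all 3 genes with a member PML/RARA lay upstream and PPARα downstream of the start. At FLT3, a growth factor receptor gene of blood progenitors, PML/RARA (fold 25.9) lay 102 bases upstream and PPARα (5.51) 192 bases downstream. At CYBA, an NADPH oxidase subunit gene, the distances were 544 and 134 bases (folds 11.3 and 5.51), and at KLF2 175 and 106 bases (13.1 and 4.27). Of 20 retinoic acid response genes ICAM1 alone (5%, against 11.5% of all coding genes) had a member, and likewise 1 had a pair with close summits. The ICAM1 pair, with folds of 7.04 for PML/RARA and 6.43 for PPARα, is placed by the start of the neighbour ICAM4. PPARα lay 96 bases upstream and PML/RARA 222 bases downstream of that start, and ICAM1 was counted for an end within 1 kb. Cell cycle and apoptosis genes had members at 4 of 28 (14.3%, near the 11.5% of all coding genes), among them CASP9, MDM2 and CDKN2D. Pairs with close summits were at 10 genes of this list. Of its 13 genes with either kind 30.8% had a member, against 41.3% of all genes. At MDM2, the p53 antagonist gene (PPARα fold 7.05, PML/RARA fold 17.7), PML/RARA lay 134 bases upstream and PPARα 382 bases downstream. At CDKN2D the folds were 3.38 and 2.80.

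Markers of other cell types had next to no pairs of either kind at their ends. Pairs inside these genes, away from the ends, were not counted. Members were at 1 of 22 lymphoid genes, 0 of 18 erythroid and megakaryocyte genes, and 0 of 24 markers from liver, muscle or neurons. Pairs with close summits were at 0, 0 and 1 of these genes, in the same order. Over all coding genes the shares were 11.5% and 16.7%. The lymphoid gene with a member was CD8A, with a PPARα fold of 3.30, a PPARα −log10 q of 1.47 and 3 bases of overlap.

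Away from gene ends 1122 members remained. Among these on the chromosomes with start sites, 128 of 1088 (11.8%, 9.91 to 13.8) had the PPARα summit within 1 kb of the start of a long noncoding RNA gene, against 8.37% (7.21 to 9.66) of the pairs with close summits. Over all 2931 members, those at gene ends included, 19 PPARα peaks overlapped a transfer RNA gene (0.648%, against 0.738% of all pairs with close summits). A small nuclear RNA gene was overlapped by 8 (0.273%, against 0.337%) and a microRNA gene by 12 (0.409%, against 0.464%). Of the members away from gene ends, the strongest by PPARα −log10 q outside chromosome 8 lay between genes on chromosome 1 (chr1:16904884-16905447, PPARα fold 17.6, PML/RARA fold 15.8). Its summits were 528 bases apart, and the nearest annotated gene, CROCC, was 8958 bases away. Others were in the noncoding gene LOC107984619 (14.2 and 16.97, 475 bases apart) and inside EPOR, the erythropoietin receptor gene (13.5 and 15.2, 219 bases). COX7A2L, a respiratory chain assembly gene (16.98 and 18.6, 244 bases), held one at an inner start site, PPARα 89 and PML/RARA 333 bases upstream of it. FSTL3, the gene of a secreted activin-binding protein, held another (16.4 and 17.1, 222 bases).

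The promoters of the members were rich in G and C and in CpG, and differed little from those of the pairs with close summits. The median GC content of the 300-base windows was 66.7% (quartiles 61.7 and 72.3) over 1693 start sites with members alone, 65.3% over 2384 with close summits alone, and 62.7% over all 21156 coding start sites. The observed over expected CpG ratio had medians of 0.879, 0.866 and 0.743. GC content was also taken over the 51 bases centred on a summit, where these fell inside a window. In the members its median was 70.6% for PML/RARA (1243 summits) and 64.7% for PPARα (172 summits). In the pairs with close summits it was 68.6% and 64.7%.

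Letters of 15 motifs were searched on both strands of these windows, and matches are descriptions only. The GC box GGGCGG, bound by SP and KLF factors, was in 77.8% of the member windows, 75.3% of those with close summits and 56.6% of all coding windows. The ETS core CCGGAAG was in 23.5%, 25.6% and 12.9%, the box CCAAT in 38.3%, 43.8% and 34.4%, the NRF1 core GCATGCGC in 7.32%, 6.71% and 3.66%, and the YY1 core AAGATGGC in 6.14%, 6.59% and 3.50%. The cAMP response element TGACGTCA was in 3.96%, 4.24% and 2.31% and the E-box CACGTG in 11.6%, 10.5% and 8.25%. The TATA box TATAAA was in 4.13% of the member windows, 4.45% of those with close summits and 9.51% of all. Windows with the ETS core made up 25.4% where PPARα was the downstream summit and 20.3% where it was the upstream one.

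Of the 1706 pairs at start sites, 172 PPARα summits and 1243 PML/RARA summits had their surrounding 51 bases inside a window. Most PPARα summits lay outside the windows, so the sequence at them was not searched. The half-site AGGTCA was in 169 of 1693 member windows (9.98%, 8.60 to 11.5), 8.81% of those with close summits and 11.9% of all. Direct repeats of these letters, meaning AGGTCA followed on the same strand by any 1, 2 or 5 bases and AGGTCA again, contain the half-site. Each of the 3 repeats was in 0 of 1693 member windows, which allows a share of up to 0.218%, and they were in 5, 1 and 1 of all 21156 windows. The AP-1 site TGANTCA was in 4.02%, 3.48% and 6.08%, the C/EBP site TTGCNNCAA in 1.004%, 1.47% and 1.68%, and the PU.1 core GAGGAAGT in 2.72%, 2.73% and 2.60%.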

How the data were processed

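CUT&Tag peak lists for PPARα and PML/RARA in NB4 cells, 1 library each, were used as deposited. The submitters' processing notes list MACS 1.4.2, Bowtie2 2.2.9, bedtools, SAMtools and the build hg38 and give no roles, settings or order. The lists have the narrowPeak layout of the later MACS2, so the caller and the settings that placed the summits, on which membership rests, are not settled. Control libraries, duplicates and masked regions are not given in the sources used here. Per peak the authors deposited a fold over background (a linear ratio), a −log10 p, a −log10 q, a whole-number display score and a summit. The score and −log10 p were not used. The 2 lists' folds share no scale, and the depth of either library is unknown.

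Peaks on chromosomes 1 to 22 were paired in Python 3.11.15 (pandas 2.3.3, scipy 1.17.1) when they shared at least 1 base, and kept where the PPARα peak had exactly 1 partner. The pairing was tested on simulated data. Both annotated ends of coding genes (window 1 kb) were read from RefSeq's gene table for GRCh38.p14. Start sites, strands and 300-base windows came from the RefSeq promoter table, and each pair was set against the site nearest to the midpoint of its summits. Exons, introns and UTRs were not separated.

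There is no replicate, so no test was made. The members and gene lists were chosen with earlier results of these data known. Named pairs outside chromosome 8 were, near gene ends, the 8 with the highest PPARα −log10 q, the 8 with the highest PML/RARA −log10 q and the 5 with the largest distance, then the 5 strongest away from ends, 3 on each side of 200 bases, and up to 4 for each of 11 lists. Some genes that this rule names are not reported here. Other list members that are named, and the start-site arrangements, were added after the data were seen. Alternatives were thresholds of 100 and 300 bases, −log10 q of at least 5, a stricter overlap, and windows of 500 bases and 5 kb.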

Additional observations from a re-analysis of the deposited data

How the results depend on the processing

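Under 4 pairing alternatives (thresholds of 100 and 300 bases, −log10 q of at least 5, overlap of at least 50% of the shorter peak), pairs apart had, as in the report, the higher share near gene ends, the higher share with PML/RARA nearer to the end, the higher share with the start between PML/RARA upstream and PPARα downstream, the lower median folds and the lower share with both summits inside. The last of these and the share with the start between follow from any distance limit, so their direction says nothing about stability. The shares with PML/RARA nearer rose with the threshold, and the part of the limit in their direction was not tested. Start-site values under these alternatives were added after seeing the data. With a threshold of 100 bases, 71.2% of single-overlap pairs were apart, the PPARα summit was near a gene end in 59.8%, the PML/RARA summit was nearer to the gene end in 65.4% and to the start site in 67.3%, and both summits lay inside the other peak in 57.5%. With 300 bases these values were 13.5%, 64.0%, 74.6%, 77.4% and 30.0%, with median folds of 5.96 (PPARα) and 15.1 (PML/RARA). With −log10 q of at least 5 in both lists, the shares were 68.0% near a gene end, 67.5% and 69.8% with PML/RARA nearer to the gene end and start site, and 55.2% with both summits inside, and the median folds were 7.59 and 16.3. With an overlap of at least 50% of the shorter peak, 36.4% were apart, 65.2% near a gene end, 67.9% with PML/RARA nearer and 49.4% with both inside, and the median PPARα fold was 6.72, against 6.73 in the pairs with close summits. Gene-end windows of 500 bases and 5 kb gave 55.3% and 70.7%. Larger thresholds and stricter lists keep other pairs by construction; the cause of the remaining shifts was not tested. Depth is unknown, so the precision of a summit is too, and with 1 library per antibody no library could be left out. No paired analysis was possible because each antibody has 1 library with no replicate.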
